A study of Mus musculus with 36 samples.

Results

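The 5 genes described here belong to the circadian clock and were followed in the livers of mice fed tomato powder: Arntl, Clock and Npas2, which encode the activators of the clock, and Cry1 and Nfil3, whose transcripts are known to be high at about the same time of day as Arntl. They were taken by name, without use of their values, and all 5 were found among the 53715 gene identifiers of the table and passed the filter on low counts. Liver RNA was sequenced from 36 male C57BL/6 mice aged 10 weeks, 12 libraries per diet, each with a mouse number of its own. Feeding began at 4 weeks of age and lasted 6 weeks, with the purified AIN93G diet either alone (Control) or with 10% by weight of powdered red tomato (Red) or tangerine tomato (Tangerine). Red tomatoes are rich in all-trans lycopene and tangerine tomatoes in cis forms of lycopene. All groups shared the strain, the sex and the base diet, and the labels give no time of day, fasting state or housing for the collection of tissue.

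The protein of Arntl, also called BMAL1, pairs with CLOCK or with its close relative NPAS2, and the pair binds E-box sequences and switches on the Period, Cryptochrome, REV-ERB and PAR bZip genes. REV-ERB proteins (Nr1d1, Nr1d2) in turn repress, and ROR proteins activate, genes with a ROR element, among them Arntl, Npas2, Cry1 and Nfil3, so that these transcripts rise when those of Nr1d1 and Dbp fall. CRY1 is a repressor of the CLOCK-BMAL1 pair, and NFIL3 (E4BP4) represses the D-box genes that DBP, TEF and HLF activate. In liver this cycle is also set by the time of feeding.

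The clock sequences next to the starts of these genes are shown for the 3 members whose windows held letters of the elements named above. The RefSeq promoter table (GRCm38.p6) held 8 windows for the 5 members, each with 250 bases before and 50 bases from a transcription start. The windows were searched on both strands for the E-box CACGTG and its variant CACGTT, the cores TAGGTCA and TGGGTCA of the ROR element, the D-box letters TTATGTAA and TTACGTAA, and the CRE letters TGACGTCA. Matches are in capitals, they do not overlap, and positions count the start base as 1. Arntl is shown at chr7:113207261-113207560 on the plus strand, Cry1 at chr10:85185005-85185304 and Nfil3 at chr13:52980990-52981289 on the minus strand.
Arntl: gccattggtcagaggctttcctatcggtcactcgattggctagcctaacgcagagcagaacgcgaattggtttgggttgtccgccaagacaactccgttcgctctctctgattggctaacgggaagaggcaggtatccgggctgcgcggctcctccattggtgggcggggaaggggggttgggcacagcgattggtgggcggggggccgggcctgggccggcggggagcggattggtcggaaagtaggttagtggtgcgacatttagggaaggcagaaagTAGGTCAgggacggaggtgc
Cry1: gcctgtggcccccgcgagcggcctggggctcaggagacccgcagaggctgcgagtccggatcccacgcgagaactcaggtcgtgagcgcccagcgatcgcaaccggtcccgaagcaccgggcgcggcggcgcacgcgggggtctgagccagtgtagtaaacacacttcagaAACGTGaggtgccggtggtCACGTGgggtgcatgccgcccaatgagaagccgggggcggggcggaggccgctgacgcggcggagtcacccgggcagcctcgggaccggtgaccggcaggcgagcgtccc
Nfil3: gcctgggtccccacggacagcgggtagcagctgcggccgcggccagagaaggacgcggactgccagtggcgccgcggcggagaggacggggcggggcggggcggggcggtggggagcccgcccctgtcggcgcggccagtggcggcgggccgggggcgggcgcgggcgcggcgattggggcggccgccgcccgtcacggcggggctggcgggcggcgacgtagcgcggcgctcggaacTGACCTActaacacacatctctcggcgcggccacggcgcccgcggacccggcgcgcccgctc
Arntl held the ROR element core TAGGTCA at position 31, inside the first exon of that transcript. Its other window, whose start lies 46 bases upstream, ends before this core. Nfil3 held the same core on the opposite strand at position -12. Cry1 held the E-box at position -60 and the E-box variant on the opposite strand at position -79. Of 32851 promoter windows, 2.61% held TAGGTCA, 7.15% held CACGTG and 4.68% held CACGTT. The windows of Clock and Npas2 held none of the letters searched, and no member's window held the D-box letters, the CRE letters or TGGGTCA. These are matches of letters in short windows, and binding was not measured.

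The 5 genes lie on different chromosomes, and all are annotated as protein coding in GENCODE release M21 (GRCm38). Arntl (ENSMUSG00000055116) spans chr7:113207465-113314126 on the plus strand and Npas2 (ENSMUSG00000026077) chr1:39193731-39363236 on the plus strand. Clock (ENSMUSG00000029238) spans chr5:76209868-76304792, Cry1 (ENSMUSG00000020038) chr10:85131700-85185064 and Nfil3 (ENSMUSG00000056749) chr13:52967209-52981073, all on the minus strand. The 5 other annotated genes that overlap these spans, 1 in Arntl, 2 in Clock and 2 in Npas2, had 0 counts in all libraries.

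Library totals lay between 21290169 and 33810573 counts. The 5 hepatocyte markers (Alb, Apoa1, Ttr, Serpina1a, Tat) had counts in every diet, with a summed level from 82821 to 119440 CPM. The highest sums of T cell, adipose and exocrine pancreas markers lay in red 186 or tangerine 216. The Red medians were 2.72 CPM for T cell and 0.113 CPM for adipose markers. The Tangerine median for exocrine pancreas markers was 0.0174 CPM. Other single libraries of those diets are not given here. In red 186 the 5 T cell markers summed to 174 CPM, against at most 3.48 CPM in a Control and 4.10 CPM in a Tangerine library. The 5 adipose markers summed there to 7.38 CPM, against at most 0.235 and 0.417 CPM. The 5 exocrine pancreas markers summed to 8.61 CPM in tangerine 216, against at most 0.047 CPM in a Control and 0.301 CPM in a Red library. Kupffer cell markers ranged from 62.8 to 245 CPM and erythroid markers from 99.8 to 528 CPM over all libraries. The gene tests, the lists, the ratios and the correlations between members were therefore also run without red 186 and tangerine 216.

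Levels of the genes were compared with each other per kilobase of annotated exon, on CPM (each count relative to the size of its library, scaled between libraries by edgeR). Nfil3 had the highest level, 11.6 ± 4.91 CPM per kb (SD, n = 36), followed by Clock at 3.68 ± 0.912, Cry1 at 2.91 ± 0.815, Arntl at 1.38 ± 1.03 and Npas2 at 0.441 ± 0.525 CPM per kb. Nfil3 exceeded Clock, Cry1 exceeded Arntl and Arntl exceeded Npas2 in 36 of 36 libraries. Clock exceeded Cry1 in 32 of 36, and the levels of those genes lay within each other's spread. The order of the mean levels hides a wide range among mice for the less abundant genes. Npas2 ranged 108-fold between its lowest and highest library and Arntl 25.0-fold, whereas Nfil3 ranged 5.13-fold, Cry1 3.26-fold and Clock 3.22-fold.

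The main question was whether the clock activators and the genes of their phase differed between diets. All 5 transcripts had their highest mean on Red, and 4 of them, Arntl, Npas2, Clock and Cry1, were lower on Tangerine than on Red past the threshold. Among all 14068 genes tested, 0.981% passed as lower in this comparison. Npas2 fell most, to 0.176 of its Red level in the fit, followed by Arntl at 0.363, Cry1 at 0.721 and Clock at 0.727. Nfil3 moved the same way without passing the threshold. Against Control, no member passed in edgeR or DESeq2 on either powder, while limma-voom called 4 of the 5 as higher on Red. That limma-voom comparison called 1504 of the 14068 genes. In bulk tissue, fewer cells that express a gene and less RNA per cell cannot be told apart.

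**Figure D1:**
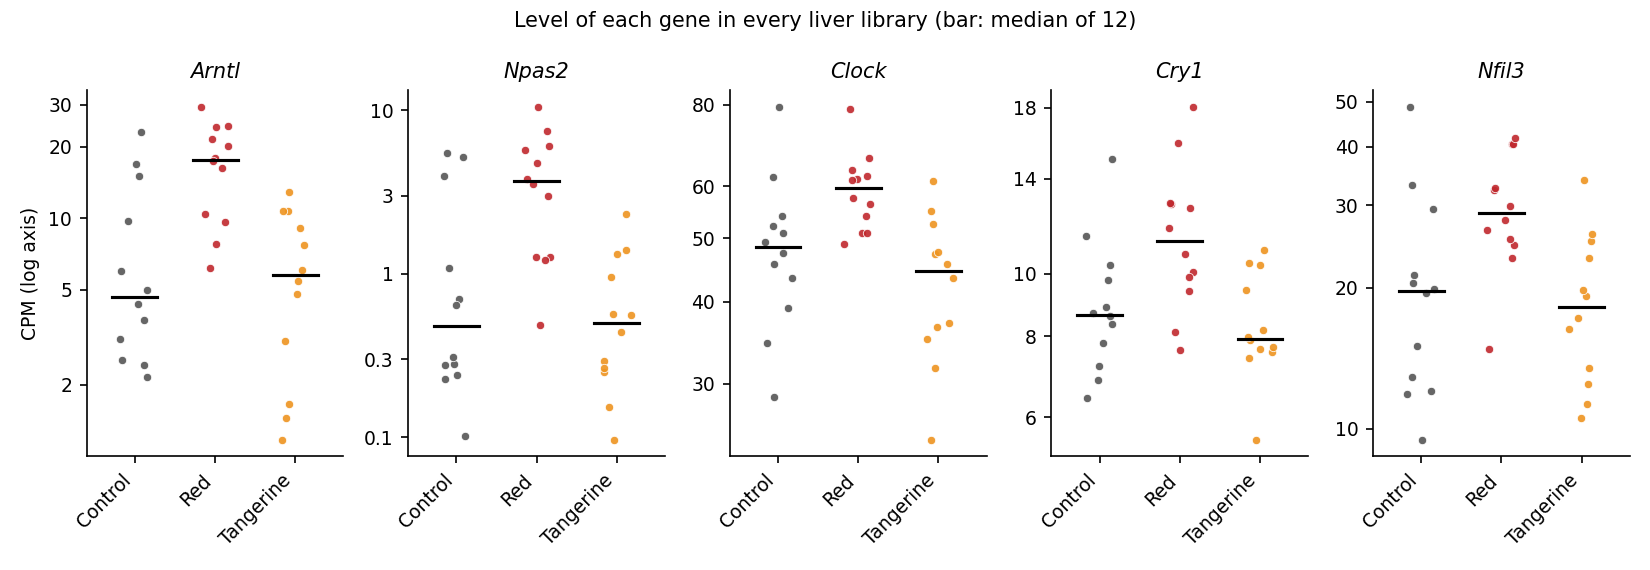
Level in CPM (log axes, scaled per gene) of each member in each of the 36 liver libraries, by diet; each point is a mouse and the bar is the median of 12. The Red median is the highest for all 5 genes, and the diets overlap for every gene.

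Arntl, the partner common to both activator pairs, had 2.15 CPM in the lowest, 4.67 in the median and 23.0 in the highest Control library. On Red these values were 6.16, 17.7 and 29.3 CPM, and on Tangerine 1.17, 5.78 and 12.9 CPM. Every one of the 12 Red libraries had more than the Control median, and each of the 12 Tangerine libraries had less than the Red median. The groups still overlapped, since 7 Tangerine libraries were below every Red library and the other 5 were not. Means were 7.83 ± 6.87 CPM on Control, 17.1 ± 7.33 on Red and 6.24 ± 4.01 on Tangerine (SD, n = 12 each). The log2 fold change of Tangerine against Red was -1.46 (SE 0.396, 95% interval -2.27 to -0.66, edgeR adjusted p 0.0464). Red was above Control by 1.13 (SE 0.391, adjusted p 0.187) and Tangerine differed from Control by -0.33 (SE 0.399, adjusted p 0.9999), neither of which passed.

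Npas2, the relative of Clock that can take its place beside BMAL1, was the least abundant member. Its counts were low, from 3 to 155 per library on Control, 14 to 321 on Red and 3 to 63 on Tangerine. The lowest, median and highest levels were 0.102, 0.478 and 5.49 CPM on Control, 0.485, 3.67 and 10.4 CPM on Red, and 0.0968, 0.498 and 2.32 CPM on Tangerine. In 3 Control libraries, those with the highest Arntl, the level stood above the rest of their group, while all 12 Tangerine libraries lay below the Red median. Tangerine against Red gave a log2 fold change of -2.51 (SE 0.585, 95% interval -3.70 to -1.32, edgeR adjusted p 0.0224). Red was above Control by 1.41 (SE 0.542, adjusted p 0.246), and Tangerine differed from Control by -1.10 (SE 0.606, adjusted p 0.936).

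Clock encodes the usual partner of BMAL1. Its lowest, median and highest levels were 28.6, 48.4 and 79.3 CPM on Control, 49.0, 59.6 and 78.9 CPM on Red, and 24.6, 44.6 and 61.2 CPM on Tangerine. All 12 Red libraries exceeded the Control median, and 9 Tangerine libraries were below every Red library. Tangerine against Red was -0.46 on the log2 scale (SE 0.127, 95% interval -0.72 to -0.20, edgeR adjusted p 0.0492). Red against Control was 0.28 (SE 0.126, adjusted p 0.335) and Tangerine against Control -0.18 (SE 0.127, adjusted p 0.988).

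Cry1, the repressor that peaks late among the Cryptochrome and Period transcripts, had lowest, median and highest levels of 6.44, 8.64 and 14.99 CPM on Control, 7.61, 11.2 and 18.1 CPM on Red, and 5.54, 7.93 and 10.9 CPM on Tangerine. All 12 Tangerine libraries lay below the Red median, and 3 lay below every Red library. Tangerine against Red was -0.47 (SE 0.130, 95% interval -0.74 to -0.21, edgeR adjusted p 0.0497). Red against Control was 0.36 (SE 0.130, adjusted p 0.213) and Tangerine against Control -0.12 (SE 0.131, adjusted p 0.9999).

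Nfil3, the D-box repressor, had lowest, median and highest levels of 9.48, 19.7 and 48.6 CPM on Control, 14.8, 28.9 and 41.8 CPM on Red, and 10.5, 18.2 and 33.95 CPM on Tangerine. A Control library, mouse 188, held the highest value of all. Of the 12 Tangerine libraries, 11 were below the Red median. Tangerine against Red was -0.66 (SE 0.221, 95% interval -1.11 to -0.21), with an edgeR adjusted p of 0.122. Red against Control was 0.51 (SE 0.220, adjusted p 0.306) and Tangerine against Control -0.15 (SE 0.221, adjusted p 0.9999).

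**Figure D2:**
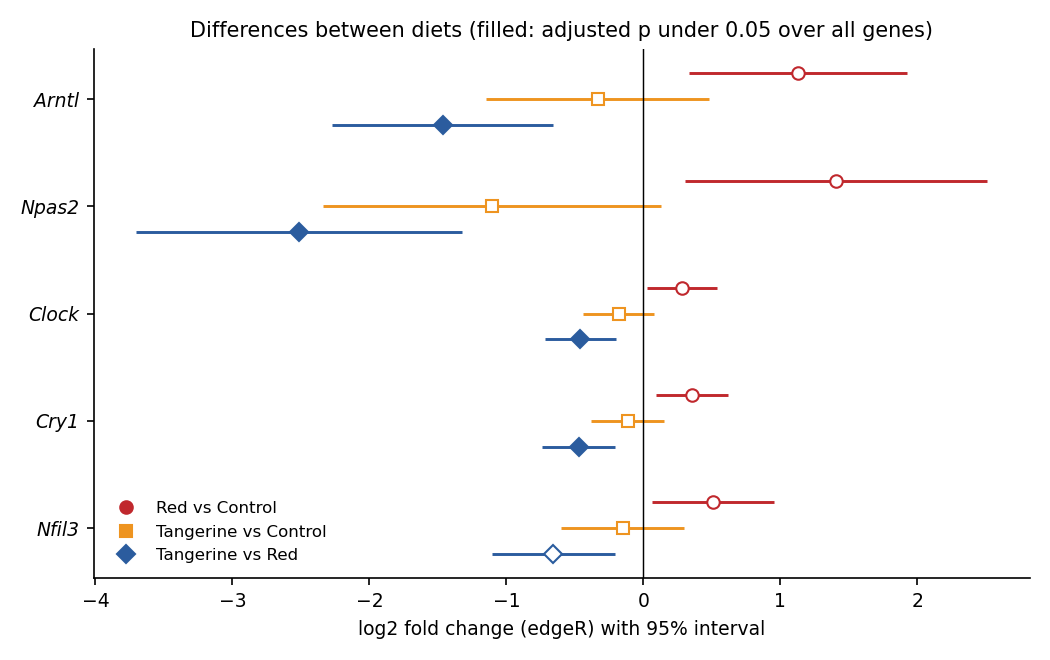
Log2 fold change of each member between pairs of diets, with 95% intervals from edgeR; filled symbols have an adjusted p under 0.05 over all 14068 tested genes. Only Tangerine against Red has filled symbols, for Arntl, Npas2, Clock and Cry1, from -0.46 to -2.51.

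Over all 14068 genes tested, 1.71% passed in Tangerine against Red, and 0.981% passed as lower on Tangerine, beside 4 of the 5 members. The members' median log2 fold change was -0.66 and that of all tested genes -0.0046. Most of these calls were close to the limit of 241 genes called, since Arntl ranked 225, Clock 238 and Cry1 241 by p-value, while Npas2 ranked 81. The calls thus moved with single libraries. Over the 36 fits that each left out 1 library, Npas2 passed in all 36, Arntl in 17, Cry1 in 13, Clock in 9 and Nfil3 in 0. Among all genes, 89 passed without tangerine 216 and 301 without control 137, the lowest and highest numbers over these fits. The number of members called was 3 or 4 in 14 of these fits, those without control 120, 137, 188, 189, 208 or 245, red 157, 170, 177 or 204, or tangerine 128, 160, 195 or 225. It was 1 or 2 in the other 22, those without any other single library. The log2 fold changes moved less, from -1.61 to -1.36 for Arntl and from -2.84 to -2.29 for Npas2. Without red 186 and tangerine 216 together no member passed (Npas2 -2.45, edgeR adjusted p 0.0553; Arntl -1.33, 0.121), and all 5 stayed below 0 in their estimates. Tangerine 216 was also the library with the lowest Arntl.

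In Red against Control, 0.149% of all tested genes passed (0.0498% higher and 0.0995% lower on Red), and 0 of 5 members did with edgeR, although all 5 had an unadjusted p under 0.05. So did 1872 of all 14068 genes. The DESeq2 test also called 0 members, among 158 genes called. With sample weights, limma-voom called 4, all but Clock, among 1504 genes. The members' median was 0.51, beside -0.0047 for all genes. In Tangerine against Control, 0.0142% of genes passed and 0 of 5 members did, with 0 at an unadjusted p under 0.05 in edgeR, 0 called by DESeq2 and 0 by limma-voom. Over all genes 770 had such an unadjusted p in edgeR. All 5 estimates were below 0, with a median of -0.18. When both powders were averaged and compared with Control, 0.00711% of genes passed and 0 of 5 members did by edgeR, DESeq2 or limma-voom, with 0 at an unadjusted p under 0.05 in edgeR. Over all genes 952 had such an unadjusted p. The members' estimates lay from 0.05 for Clock to 0.40 for Arntl. The comparisons with Control share the same 12 Control libraries.

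Whether the members moved in proportion was examined with ratios of counts to Clock within a library, which need no scaling between libraries. The log2 ratio of Arntl to Clock was -3.05 ± 1.01 on Control, -1.93 ± 0.729 on Red and -3.13 ± 0.991 on Tangerine (SD, n = 12 each). It was lower on Tangerine than on Red by a difference of -1.20 (permutation p for either direction 0.00204, adjusted over 9 ratio comparisons 0.00918). It was higher on Red than on Control by 1.12 (permutation p 0.00586, adjusted 0.0176), and the difference between Tangerine and Control was -0.07 (permutation p 0.866, adjusted 0.866). The log2 ratio of Npas2 to Clock was -6.09 ± 1.71 on Control, -4.30 ± 1.31 on Red and -6.36 ± 1.09 on Tangerine. It differed by -2.07 between Tangerine and Red (permutation p 0.00048, adjusted 0.00432) and by 1.79 between Red and Control (permutation p 0.00964, adjusted 0.0217). The ratio of Cry1 to Clock, between -2.41 and -2.34 on average in the 3 diets, differed by 0.04 between Tangerine and Red (permutation p 0.798, adjusted 0.866). Arntl and Npas2 thus changed more than Clock did, and no unequal change of Cry1 and Clock was detected. Without red 186 and tangerine 216 the Tangerine and Red difference was -1.01 for Arntl (permutation p 0.00916, adjusted 0.03) and -2.01 for Npas2 (permutation p 0.00166, adjusted 0.0149). The ratios were chosen with results of these libraries known, and their p-values are no independent evidence beside the gene tests.

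**Figure D3:**
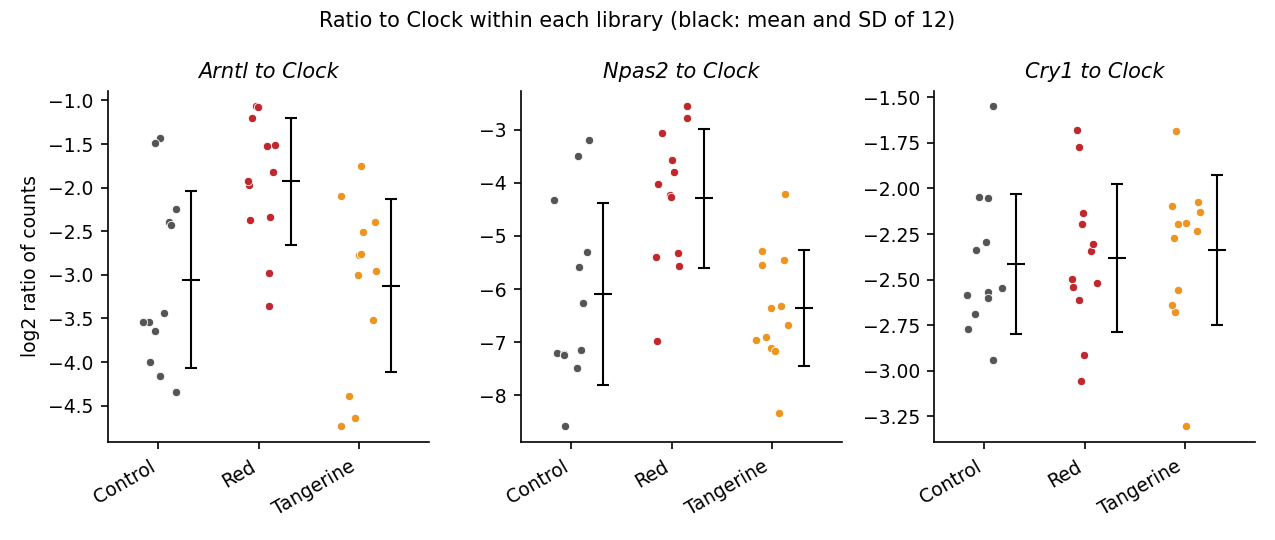
Log2 ratio of the counts of Arntl, Npas2 and Cry1 to those of Clock in each library, by diet, with the mean and SD of 12 in black. The Arntl ratio averages -1.93 on Red, -3.05 on Control and -3.13 on Tangerine, whereas the Cry1 ratio averages near -2.4 on every diet.

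Mice of the same diet differed widely, above all in Npas2 and Arntl. In the edgeR fit the biological coefficient of variation (the spread between mice beyond counting error, relative to the mean) was 0.945 for Npas2 and 0.656 for Arntl, at the 99.9th and 99.2nd percentiles of all tested genes. It was 0.369 for Nfil3, 0.217 for Cry1 and 0.216 for Clock, at the 94.4th, 75.0th and 74.7th percentiles. In the Control group mouse 188 had the highest Arntl, Npas2, Cry1 and Nfil3, and in the Red group mouse 202 did. Red 170 was the lowest of its group for the same 4 genes. In 8 of 12 Red libraries all 5 members lay above their medians over the 36 libraries, against 1 Control and 1 Tangerine library. None of the 5 did in 5 Control, 0 Red and 6 Tangerine libraries.

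With each diet's mean subtracted, log2 CPM of Arntl and Npas2 correlated with Pearson's r of 0.891 and Spearman's rho of 0.898 over 36 libraries (permutation p 1e-05 for each, the smallest the permutations can give, adjusted over 10 pairs 2.5e-05 and 3.33e-05). The value of r was 0.908 without the 2 libraries farthest from the Arntl median, and 0.956, 0.961 and 0.823 within Control, Red and Tangerine. Arntl correlated with Cry1 at r 0.748 and rho 0.787, and with Nfil3 at r 0.753 and rho 0.731 (permutation p 1e-05 for each, adjusted 2.5e-05 for r and 3.33e-05 for rho), with r of 0.728 and 0.710 without the 2 farthest libraries. Clock followed Arntl less closely, with r of 0.540 (permutation p 0.00224, adjusted 0.0032) and rho of 0.560 (permutation p 0.00121, adjusted 0.00173), and r of 0.475 without the 2 farthest libraries. Within diets this r was 0.556 on Control, 0.672 on Tangerine and 0.0748 on Red, where Clock varied little (SD 0.193 on the log2 scale); the difference between diets was not tested. Clock did not pass with Cry1 (r 0.252, permutation p 0.134, adjusted 0.149; rho 0.318, permutation p 0.0612, adjusted 0.0612). Clock with Nfil3 did not pass by r (0.267, permutation p 0.158, adjusted 0.158) and passed by rho (0.358, permutation p 0.0437, adjusted 0.0486). The remaining pairs passed by r and by rho, with r from 0.486 for Clock with Npas2 to 0.771 for Npas2 with Cry1. All pairs are of genes measured in the same libraries and share their depth and scaling.

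**Figure D4:**
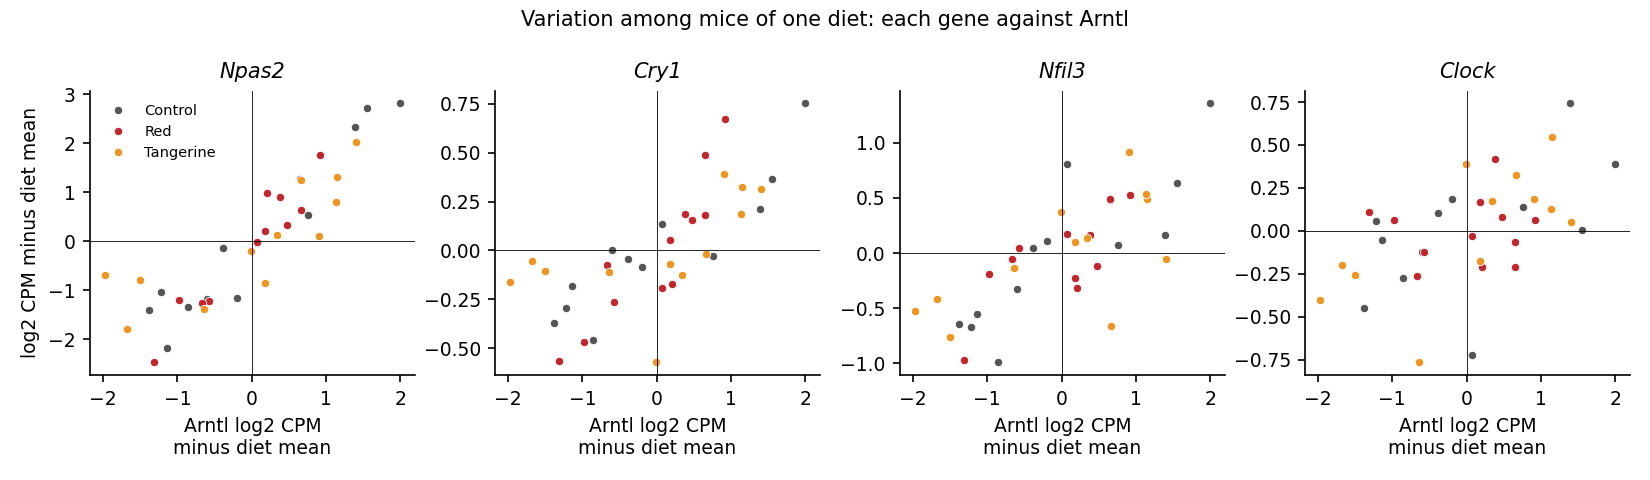
Log2 CPM of Npas2, Cry1, Nfil3 and Clock against that of Arntl in 36 libraries, with the mean of each diet subtracted and diets in colour. Npas2 lies close to a line with Arntl (r 0.891), and Clock is the most scattered (r 0.540).

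The genes most like each member were taken from the 10969 genes whose average log2 CPM reached 1, by Pearson's r over the 36 libraries with diet means subtracted. Npas2, with a mean below that limit, was not among the candidates. For Arntl these were Lrfn3, which encodes a synaptic adhesion protein (r 0.929), Insig2, an inhibitor of SREBP processing (0.920), and Chka, choline kinase alpha (0.919). The genes that ran most opposite to it were Tef (r -0.915), Slc5a6, the transporter of biotin and pantothenate (-0.904), and Gys2, the liver glycogen synthase (-0.898). Chka, Arntl and Pdgfc, a growth factor, were the closest to Npas2 (0.897, 0.891 and 0.872). Ppard, a nuclear receptor, Chka and Arntl were the closest to Cry1 (0.786, 0.783 and 0.748). Pnrc1, a nuclear receptor coactivator (0.855), Rnd1 (0.767) and Amt (0.767) were the closest to Nfil3, followed by Arntl (0.753). Clock stood apart from this group. Among the genes most like it were Selenoi (0.864) and Slc39a8 (0.851), and Arntl was only in place 935 among the genes compared with Clock. Of these neighbours, Chka was lower on Tangerine than on Red by -1.15 (edgeR adjusted p 0.0146) and Lrfn3 by -0.83 (0.0275). The other genes named as most like a member, members aside, did not pass, among them Insig2 (-0.58, edgeR adjusted p 0.138), Pdgfc (-0.56, 0.116), Ppard (-0.72, 0.145), Pnrc1 (-0.29, 0.427), Selenoi (-0.25, 0.214) and Slc39a8 (-0.11, 0.461).

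The repressor arm of the clock, which is known to run opposite to Arntl, was read from a list. Of 12 listed repressors and PAR bZip factors, 10 were tested, and 3 were higher and 0 lower on Tangerine than on Red, beside 0.732% of all genes called higher. These were Nr1d2 (0.75, SE 0.167, edgeR adjusted p 0.0173), Tef (1.08, SE 0.265, adjusted p 0.0271) and Dbp (1.84, SE 0.458, adjusted p 0.0289). Per2 had 0.54 (SE 0.157, adjusted p 0.0664), and all 10 estimates were above 0, with a median of 0.63. Without red 186 and tangerine 216, 0 of the 10 passed with edgeR, beside 86 genes called in all. In that fit 7 had an unadjusted p under 0.05, and the number over all genes was not counted. No other tool was run on those libraries. In Red against Control 0 of the 10 passed with edgeR, where 8 had an unadjusted p under 0.05, DESeq2 called 1 and limma-voom 7, all lower on Red. Over all 14068 genes, 1872 had such an unadjusted p in edgeR, DESeq2 called 158 and limma-voom 1504. Within diets, Arntl correlated negatively with all 10, from r of -0.489 for Bhlhe40 to -0.915 for Tef, a description over the same 36 libraries.

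ROR genes and genes reported as repressed by REV-ERB in liver were read next, because ROR and REV-ERB proteins act on the ROR element. Whether the listed genes hold that element was not examined. Of 9 listed, 7 were tested and 0 passed in Tangerine against Red with edgeR (3 at an unadjusted p under 0.05, 1 called by DESeq2 and 2 by limma-voom). Over all 14068 genes, 2127 had such an unadjusted p in edgeR, DESeq2 called 383 and limma-voom 746. Elovl3, a fatty acid elongase, had -1.16 (SE 0.334, edgeR adjusted p 0.0657), E2f8, a cell cycle repressor, -0.64 (SE 0.202, adjusted p 0.0923) and G6pc, the catalytic subunit of glucose-6-phosphatase, -0.67 (SE 0.294, adjusted p 0.266). Rora, an activator of the ROR element, had 0.21 (SE 0.132, adjusted p 0.459). Of 18 kinases, ubiquitin ligases and cofactors of the clock, 17 were tested and 0 passed with edgeR (3 at an unadjusted p under 0.05, 0 called by DESeq2 and 2 by limma-voom). These 3 of 17 lie near the share over all genes, 2127 of 14068. The smallest p-values in this list belonged to Prkaa1, a catalytic subunit of AMP-activated kinase (-0.27, edgeR adjusted p 0.128), Nampt, which makes NAD (0.45, 0.164), Ncor1, the corepressor of REV-ERB (-0.23, 0.182), and Fbxl21, a ligase of Cryptochromes (0.21, 0.408). Their median was -0.02, beside -0.66 for the members.

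When the first principal component of the 10 repressor and PAR bZip genes, which holds no member and took 73.8% of their variance, entered the fit as a covariate, 0 of 5 members passed in Tangerine against Red. The log2 fold changes were then -0.14 for Arntl, -0.41 for Npas2, -0.02 for Cry1, -0.08 for Nfil3 and -0.22 for Clock. In that fit 0 of all genes passed. The component averaged 0.488 ± 2.21 on Control, -1.78 ± 1.92 on Red and 1.30 ± 1.69 on Tangerine (SD, n = 12 each), high where Dbp is high. It comes from the same libraries, differs between diets, and its genes run opposite to Arntl. Entering it takes out diet differences shared with it, so smaller fold changes were built into this fit. A change of the clock with diet and a difference in the time of tissue collection cannot be told apart here.

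The mouse number was the one label besides diet that orders the libraries, and what it stands for is not given. Red numbers ran from 133 to 204, Control from 120 to 245 and Tangerine from 128 to 242. Libraries with consecutive numbers in 1 diet, 10 pairs, differed in Arntl by 0.68 on average on the log2 scale, against 1.22 for the other 188 pairs of the same diet. The same averages were 1.06 and 1.64 for Npas2, 0.229 and 0.371 for Clock, 0.42 and 0.65 for Nfil3, and 0.35 and 0.37 for Cry1. Tangerine 215, 216 and 217, for instance, held the 3 lowest Arntl levels of all libraries. Whether mice with neighbouring numbers are independent was not tested, and the p-values measure the spread between the libraries as given. With the mouse number as a covariate, 0 of 5 members passed in Tangerine against Red (Npas2 -2.41, edgeR adjusted p 0.0528; Arntl -1.34, 0.0966), among 32 genes called. Among libraries numbered 180 to 220, where all diets occur, Arntl averaged 10.3 ± 9.14 CPM on Control (n = 5), 19.9 ± 8.22 on Red (n = 5) and 4.89 ± 3.64 on Tangerine (n = 7). Tangerine against Red was -2.02 for Arntl (edgeR adjusted p 0.186) and -3.28 for Npas2 (adjusted p 0.104) in these 17 libraries, larger in size than in all 36 and past no threshold. They include tangerine 215, 216 and 217, with 1.45, 1.17 and 1.66 CPM of Arntl, numbered above every Red library. No fit of these numbers was run without those 3.

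**Figure D5:**
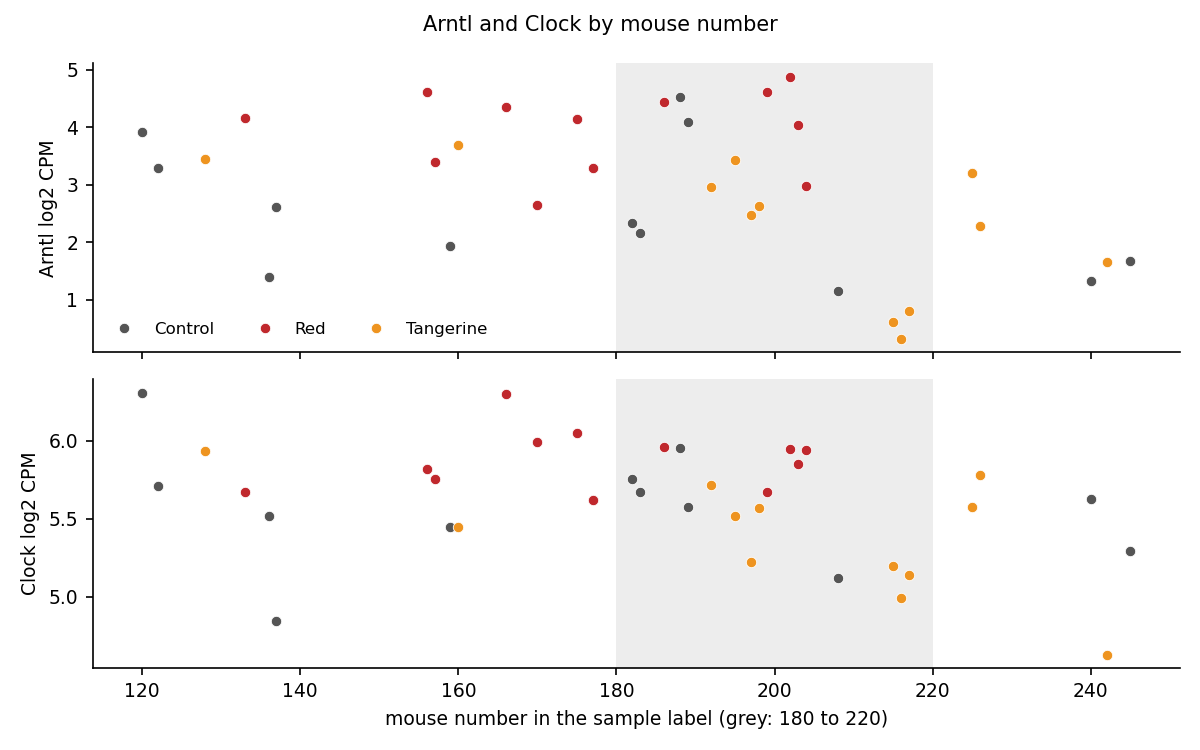
Log2 CPM of Arntl (top) and Clock (bottom) in each library against the mouse number of the label, coloured by diet, with numbers 180 to 220 in grey. Tangerine 215 to 217 hold the 3 lowest Arntl values, and no Red library is numbered above 204.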

How the data were processed

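The authors deposited raw counts of reads per gene for 36 libraries of total liver RNA made with a directional kit, per the labels' protocols. GRCm38.p6, FastQC, Trimmomatic and edgeR are named in the submitters' processing notes, and the aligner, counter, annotation and strand setting are not given in the sources used here. Columns were matched to mice by the column names in the labels. Symbols came from GENCODE M21 for 53620 identifiers.

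The filterByExpr function of edgeR 4.0.16 (minimum count 10, total 15) kept 14068 genes, and libraries were scaled by TMM. Diets were compared by a quasi-likelihood F test in edgeR over all 36 libraries, without covariates, adjusted by Benjamini-Hochberg over all tested genes, with a threshold of 0.05. Standard errors are the absolute log2 fold change divided by the square root of F. Log2 CPM used a prior count of 2, and ratios of counts added 0.5. Permutation tests used 100000 resamples in scipy 1.17.1, permuting within diets for correlations. No libraries were near-duplicates (smallest chi-square per gene 13.7 within diets).

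Genes named besides the members followed a rule: the 3 most correlated genes per member (and 3 most opposite to Arntl), and up to 4 genes per listed group with the smallest p in Tangerine against Red. A gene named by this rule is not reported here. The members, lists, ratios and rules were chosen with earlier results of these data known. Other settings were DESeq2 1.42.0 (size factors or test), limma-voom (limma 3.58.1) with sample weights, other count filters, surrogate variables (sva 3.50.0, 9 estimated and 5 used), mouse number, the repressor component, and fewer libraries. On simulated counts of 13983 genes for Tangerine against Red, the test recovered 76% of 1.5-fold and 94% of 2-fold changes, with 6 false among 190 calls. The changes were placed in genes picked at random, and genes were simulated without covariation between them. These rates are therefore not rates for the members, of which Npas2 and Arntl had biological coefficients of variation of 0.945 and 0.656.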

Additional observations from a re-analysis of the deposited data

Results flagged for a closer look

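The responses to the powders, each taken against the same Control libraries, differed in the direct test of Tangerine against Red for 4 members. The difference on the log2 scale was -1.46 for Arntl, -0.46 for Clock, -2.51 for Npas2 and -0.47 for Cry1. Neither response passed the threshold by itself in edgeR for any of them. Of all tested genes, 1.71% passed in the direct test, where Arntl, Clock and Cry1 ranked 225, 238 and 241 among the 241 called. No member passed without red 186 and tangerine 216, with the mouse number as a covariate or among mouse numbers 180 to 220.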

How the results depend on the processing

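No paired analysis was possible because no mouse number occurs in more than 1 diet. In Tangerine against Red, where 4 members passed, the number was 2 with DESeq2 size factors, 1 without a filter on low counts, 0 with the mouse number, 0 with the repressor component, 0 among mouse numbers 180 to 220 and 0 without red 186 and tangerine 216. The genes called in all were 241 in the edgeR test and 236, 136, 32, 0, 3 and 86 in these fits, in that order. It was 1 to 4 when single libraries were left out, with 89 to 301 genes called in all. It was 4 with a floor of 1 on average log2 CPM, the DESeq2 test or only the groups compared, with 264, 383 and 333 genes called in all, and 5 with limma-voom or surrogate variables, with 746 and 867. The direction was below 0 for all 5 members in each of these fits. For Red against Control, limma-voom called 4 members among 1504 genes, and every other fit called 0. Those other fits called from 4 genes in all (repressor component, or mouse numbers 180 to 220) to 507 (surrogate variables). The subset numbered 180 to 220 has fewer samples by construction; other causes were not tested.

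Values that did not pass changed sign in places. In Tangerine against Control, the repressor component gave 0.17 for Arntl, 0.0197 for Cry1 and 0.0555 for Nfil3, and leaving out single libraries gave -0.26 to 0.0332 for Nfil3. For both powders against Control, mouse numbers 180 to 220 gave -0.056 for Arntl, -0.012 for Clock, -0.50 for Npas2 and -0.16 for Nfil3. Clock was -0.0285 with limma-voom and -0.00237 with the repressor component. Leaving out single libraries gave -0.0029 to 0.13 for Clock and -0.013 to 0.55 for Npas2. Among mouse numbers 180 to 220, no ratio to Clock passed in exact permutation tests: Arntl 1.08 and Npas2 1.68 for Red against Control, and Arntl -1.78 and Npas2 -2.77 for Tangerine against Red, where Cry1 was -0.0875. Without red 186 and tangerine 216, chosen for ratios, lists and correlations after seeing the data, the Arntl ratio of Tangerine against Control was 0.0745, and r between members lay from 0.236 to 0.922. Clock and Nfil3 correlated at -0.14 within Red. Depth limits Npas2 most, with 3 counts in its lowest libraries.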

Other observations

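The genes Per3, Ciart, Usp2 and Avpr1a of the clock lists were listed at 0 in all 36 libraries, and Rorb had 4 counts in 3 libraries. Liver is known to express Per3 and Usp2 with a strong daily rhythm. How the counting arrived at 0 for Per3, Ciart, Usp2 and Avpr1a was not tested, so no level is read from these entries. Without those genes and Rorb, which fell below the filter on low counts, the lists hold 10 of 12, 7 of 9 and 17 of 18 tested genes.

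With the mouse number as a term beside diet, the level of Clock changed by -0.03 on the log2 scale per 10 numbers (SE 0.0155, edgeR adjusted p 0.992) and that of Arntl by -0.098 (SE 0.0511, adjusted p 0.992). Over all genes 0 of 14068 passed for this term in edgeR, where 614 had an unadjusted p under 0.05; no other tool was run for it.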
